A study of Mus musculus with 6 samples.

Results

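Slc19a2, which encodes a thiamine (vitamin B1) transporter of the cell surface, was described together with 5 genes of the same transport routes, Slc19a3, Slc19a1, Slc46a1, Folr1 and Fpgs, in mouse liver tumour cell lines. The members were the rows of the count table that carry these 6 gene symbols, out of 53465 genes in the table. Slc19a2 was chosen on its measured difference between the groups described here, as one of the strongest in the table, so its difference is given as a description with no test. The other 5 genes were named for their function, but with earlier results of these data known. The table held all 6 members, and 4 of them passed the filter on low counts that left 11510 genes for testing, namely Slc19a2, Slc19a1, Slc46a1 and Fpgs. Slc19a3 and Folr1 did not pass it.

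Thiamine and folate cannot be made by mammalian cells and enter them through related carriers. The SLC19 family holds the thiamine transporters Slc19a2 and Slc19a3 and the reduced folate carrier Slc19a1. Inside the cell thiamine is converted to thiamine pyrophosphate, the cofactor of transketolase and of the mitochondrial 2-oxoacid dehydrogenases. Folates also enter by the proton-coupled folate transporter Slc46a1 and by the surface receptor Folr1, and are held in the cell once Fpgs has added glutamate residues to them. Mouse Slc19a2 is known from earlier work as a gene that the p53 protein induces directly.

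The RNA came from cell lines of the groups Myc_Utx (lines 2A, 2B and 2D) and Myc_p53 (lines 1, 2 and 3), each line from the tumour of a different C57BL/6 mouse. Per the study's methods, tumours were raised in adult female mice by injecting a transposon that expresses Myc under the EF1a promoter together with a plasmid for Cas9 and a guide RNA, against Kdm6a (also called Utx) in Myc_Utx and against the gene its label names in Myc_p53. Both groups therefore carry Myc, and neither has both guide targets left unedited, so the effects of the 2 edited genes cannot be told apart in this comparison. Each line stands for 1 tumour and was passaged until it looked free of other cells. Total counts ranged from 4656103 to 6937497 per line, where 3 counts correspond to a CPM of 0.428 to 0.668. CPM are counts per 1000000 after TMM normalization, a scaling for library size and composition. Changes are log2 fold changes of Myc_Utx over Myc_p53 with a standard error (SE), and adjusted p are from edgeR's quasi-likelihood test with Benjamini-Hochberg adjustment over all genes tested.

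The gene targeted in Myc_Utx was read first. Kdm6a had 39.7, 45.7 and 49.0 CPM in Myc_Utx lines 2A, 2B and 2D and 69.5, 64.5 and 42.5 CPM in Myc_p53 lines 1, 2 and 3, and the groups overlapped (log2 fold change -0.39, SE 0.22, adjusted p = 0.243). An edited gene can still be transcribed, so this level does not check the Kdm6a edit. The study reports indels in Kdm6a and loss of its protein in cell lines from tumours with the Kdm6a guide. It does not say whether those were the lines sequenced here. The study's methods name a guide against Mll3 for these libraries where the labels write Utx. Kmt2c, the gene for MLL3, had 69.6, 77.0 and 86.6 CPM in Myc_Utx and 148.4, 115.8 and 121.3 CPM in Myc_p53 (log2 fold change -0.73, SE 0.15, adjusted p = 0.0289). That call was lost with an offset for transcript length (-0.29, adjusted p = 0.317) and in 5 of the 6 fits that left out a line. Groups follow the labels. Of the hepatocyte markers, Alb (albumin), Ttr and Apoa1 had at most 26 counts in any line. Fgb had 11, 6 and 199 counts in Myc_Utx and 160, 100 and 104 in Myc_p53, and Ahsg reached 154 in line 2D. The hepatocyte factor Hnf4a had 3, 3 and 0 counts in Myc_Utx and 64, 8 and 47 in Myc_p53, without overlap.

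Slc19a2 (ENSMUSG00000040918, plus strand of chr1:164249046-164265385 in GRCm38) was the member that stood apart. It had 687, 690 and 428 counts in Myc_Utx lines 2A, 2B and 2D and 125, 108 and 141 counts in Myc_p53 lines 1, 2 and 3. On the normalized scale these were 137.0, 129.2 and 95.3 CPM against 19.8, 20.0 and 20.1 CPM. Every Myc_Utx line lay far above every Myc_p53 line, and line 2D was the lowest of its group. The means were 120.5 ± 22.2 (SD, n = 3) and 20.0 ± 0.183 (SD, n = 3) CPM, a ratio of 6.04 and on the log2 scale 2.59 (SE 0.17). In such bulk RNA, fewer cells that express a gene and less RNA per cell cannot be told apart. The table held 89 tested genes with a larger log2 fold change. The Myc_p53 lines differed by less than counting alone would give, with a coefficient of variation of 0.917% where the mean count corresponds to 8.96%. In the Myc_Utx lines the coefficient was 18.4% against 4.08% from counting. The log2 fold change stayed between 2.51 and 2.75 when each line was left out in turn and between 2.53 and 2.71 under the other alternatives.

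**Figure D1:**
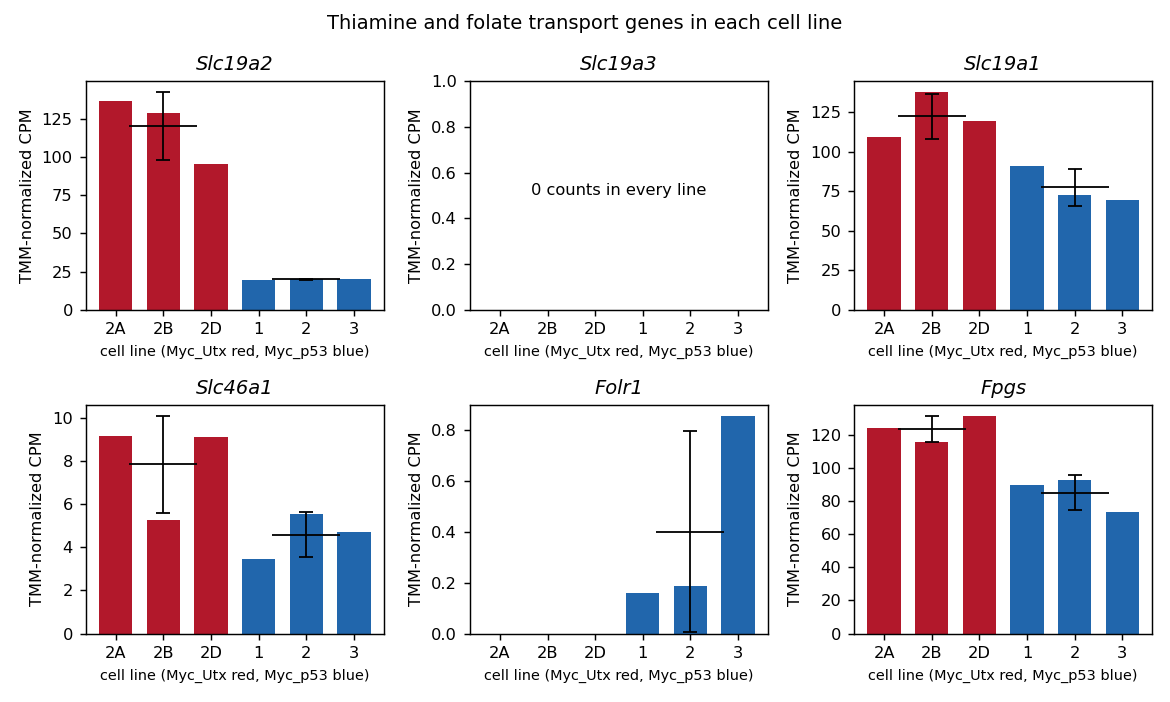
TMM-normalized CPM (y axis) of each member in the 6 cell lines (x axis), Myc_Utx in red and Myc_p53 in blue. Black lines give the mean and SD of each group with counts (n = 3). Slc19a2 sits between 95.3 and 137.0 CPM in Myc_Utx and between 19.8 and 20.1 CPM in Myc_p53, and Slc19a3 has 0 counts in every line.

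Slc19a3 (ENSMUSG00000038496, minus strand of chr1:83012523-83038448), the other SLC19 thiamine transporter, had 0 counts in all 6 lines. With 3 counts as the limit that a count of 0 allows, this puts it below 0.428 to 0.668 CPM per line, an upper limit for counting error only. Slc19a2 was thus the SLC19 thiamine transporter with reads in these lines of both groups.

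The sequences before the start sites of these thiamine transporters are shown because one gene had reads in every line and the other had none. Both are 250 bases, 5′ to 3′ on the gene's own strand, from RefSeq for GRCm38.p6 (a window was found for 5 of the 6 members, not for Folr1). The Slc19a2 window is chr1:164248796-164249045 on the plus strand and the Slc19a3 window is chr1:83038449-83038698 on the minus strand. Capitals mark the GC box, GGGCGG on either strand.
Slc19a2: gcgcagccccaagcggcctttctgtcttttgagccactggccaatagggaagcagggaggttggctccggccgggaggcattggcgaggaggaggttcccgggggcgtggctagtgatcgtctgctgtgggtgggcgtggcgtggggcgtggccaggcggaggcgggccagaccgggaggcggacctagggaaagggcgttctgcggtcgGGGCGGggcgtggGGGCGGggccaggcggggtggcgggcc
Slc19a3: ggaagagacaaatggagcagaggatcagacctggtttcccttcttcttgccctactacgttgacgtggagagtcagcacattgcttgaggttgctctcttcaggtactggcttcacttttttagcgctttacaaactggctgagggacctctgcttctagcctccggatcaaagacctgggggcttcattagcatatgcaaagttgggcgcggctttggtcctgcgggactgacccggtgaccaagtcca

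The Slc19a2 window had 73.2% G and C, at or above 94.7% of the 32851 RefSeq windows of the same length, and 23 CpG dinucleotides against a median of 6. It held 2 GC boxes and 2 CCAAT motifs (counted on both strands, with no overlap between these motifs), where 32.7% and 33.8% of all windows held at least 1. At least as many GC boxes as in this window were found in 16.7% of all windows. The Slc19a3 window had 52.8% G and C, near the median of 52.4%, with 8 CpG dinucleotides and none of these motifs. Neither window held TATAAA on either strand, found in 12.4% of all windows. Neither held the p53 half-site consensus, searched on both strands and present in 7.13% of windows, which says only that those letters are not in these 250 bases. Among other members with reads in every line, the Fpgs window (60.4% G and C) also held 2 GC boxes and 2 CCAAT motifs. The Slc19a1 windows (62.0%) held 2 and 0 GC boxes and the Slc46a1 window (49.6%) held 1, all with 0 CCAAT motifs. A link between these features and expression was not tested.

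Slc19a1 (ENSMUSG00000001436, plus strand of chr10:77032241-77061002), the reduced folate carrier, had 109.7, 138.0 and 119.8 CPM in Myc_Utx lines 2A, 2B and 2D and 91.0, 72.8 and 69.3 CPM in Myc_p53 lines 1, 2 and 3. All Myc_Utx lines were above all Myc_p53 lines, with a gap between 91.0 and 109.7 CPM. The means were 122.5 ± 14.3 (SD, n = 3) and 77.7 ± 11.7 (SD, n = 3) CPM (log2 fold change 0.66, SE 0.16, adjusted p = 0.0412, edgeR). Col18a1 overlaps its span on the opposite strand and shares 0 exon bases with it. Col18a1 varied from 64 to 2145 counts and its groups overlapped. The Slc19a1 call was lost with total counts only (log2 fold change 0.59, adjusted p = 0.0559) and in 5 of the 6 fits that left out a line, where the log2 fold change stayed between 0.57 and 0.78.

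Fpgs (ENSMUSG00000009566, minus strand of chr2:32682609-32704145), the enzyme that traps folate by adding glutamates, had 124.4, 115.9 and 131.6 CPM in Myc_Utx and 89.6, 93.0 and 73.3 CPM in Myc_p53. The groups did not overlap. The means were 124.0 ± 7.86 (SD, n = 3) and 85.3 ± 10.6 (SD, n = 3) CPM (log2 fold change 0.54, SE 0.13, adjusted p = 0.0444, edgeR). The overlapping gene Eng, on the other strand, had at most 21 counts and shares 61 of the 3802 exon bases. The Fpgs call was lost with no filter on low counts (adjusted p = 0.0580), with at least 10 counts in every line (0.0524), with total counts only (0.0582) and in 5 of the 6 fits without one line, while the log2 fold change stayed between 0.44 and 0.66 in all alternatives.

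Slc46a1 (ENSMUSG00000020829, plus strand of chr11:78465697-78472059), the proton-coupled folate transporter, was low, with 46, 28 and 41 counts in Myc_Utx and 22, 30 and 33 in Myc_p53. These were 9.17, 5.24 and 9.13 CPM against 3.48, 5.56 and 4.71 CPM. The groups overlapped through line 2B, which lay below Myc_p53 line 2. The log2 fold change of 0.77 did not pass (SE 0.35, adjusted p = 0.169). Its 95% interval of -0.06 to 1.61 holds both no difference and one as large as that of Slc19a1 or Fpgs.

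Folr1 (ENSMUSG00000001827, minus strand of chr7:101858331-101870788), the folate receptor that takes up folate by endocytosis, had 0 counts in each Myc_Utx line and 1, 1 and 6 in Myc_p53 lines 1, 2 and 3. Its reads were thus at or under 3 counts in every line but Myc_p53 line 3. At this depth no fold is given. Anapc15, which overlaps its span on the opposite strand, had up to 82 counts and shares 0 exon bases with it. Folr2, a folate receptor known from macrophages, had 2 counts in Myc_p53 line 3 and 0 elsewhere. Macrophage markers moved the same way. The 10 markers listed summed to 2.79 to 5.99 CPM in Myc_Utx and 39.9 to 108.1 CPM in Myc_p53. By sign, all 6 tested were lower in Myc_Utx. At an adjusted p under 0.05, 5 were called lower, as were 7.69% of all genes tested. Of the listed markers, however, Ptprc had at most 3 counts in any line and Clec4f had 0 in all lines. The part of the macrophage markers in the Folr1 reads was not tested.

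Of the 3 tested members other than Slc19a2, 2 were higher in Myc_Utx at an adjusted p under 0.05 (Slc19a1 and Fpgs) and 0 were lower, where 6.99% of all genes tested were higher and 7.69% lower. The same 2 members had no overlap between groups with Myc_Utx above, which 21.1% of genes tested had (Myc_Utx lay wholly below in 20.9%). Over all genes tested, 805 were called higher and 885 lower. The split was 962 and 539 with an offset for transcript length and 601 and 1009 with total counts only. Fits without one Myc_Utx line called far fewer genes over the whole table, 3 higher and 1 lower without 2A, 43 and 38 without 2B and 43 and 28 without 2D. The fit without Myc_p53 line 3 called 63 and 57, and those without lines 1 and 2 called 481 and 627 and 836 and 1118. A call lost without a Myc_Utx line, or without Myc_p53 line 1 or 3, therefore goes with a loss over all genes. That does not hold without Myc_p53 line 2, where more genes were called but the Slc19a1 call was lost (adjusted p = 0.0678). Since members had to pass a filter on low counts to be tested, and are few, these counts describe single genes and not the transport routes as a whole.

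Levels were compared between genes only after division by length, as CPM per kilobase of transcript. In Myc_Utx the order was Fpgs (32.6 ± 2.07, SD, n = 3), Slc19a2 (31.4 ± 5.78), Slc19a1 (26.4 ± 3.09) and Slc46a1 (2.55 ± 0.733). Fpgs and Slc19a2 overlapped between lines, as did Slc19a2 and Slc19a1. In Myc_p53 the order was Fpgs (22.4 ± 2.78), Slc19a1 (16.7 ± 2.51), Slc19a2 (5.20 ± 0.0477) and Slc46a1 (1.49 ± 0.340), and here only Fpgs and Slc19a1 overlapped. Slc19a2 was thus below Slc19a1 in each Myc_p53 line and near or above it in the Myc_Utx lines. Within each line the ratio of Slc19a2 to Slc19a1 per length was 1.51, 1.13 and 0.963 in lines 2A, 2B and 2D and 0.263, 0.333 and 0.351 in lines 1, 2 and 3. The ratio of Fpgs to Slc19a1 overlapped between groups, at 1.03 to 1.39 in Myc_Utx and 1.20 to 1.56 in Myc_p53. Slc19a1 exceeded Slc46a1 per length by 7.93-fold to 17.5-fold over the 6 lines.

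**Figure D2:**
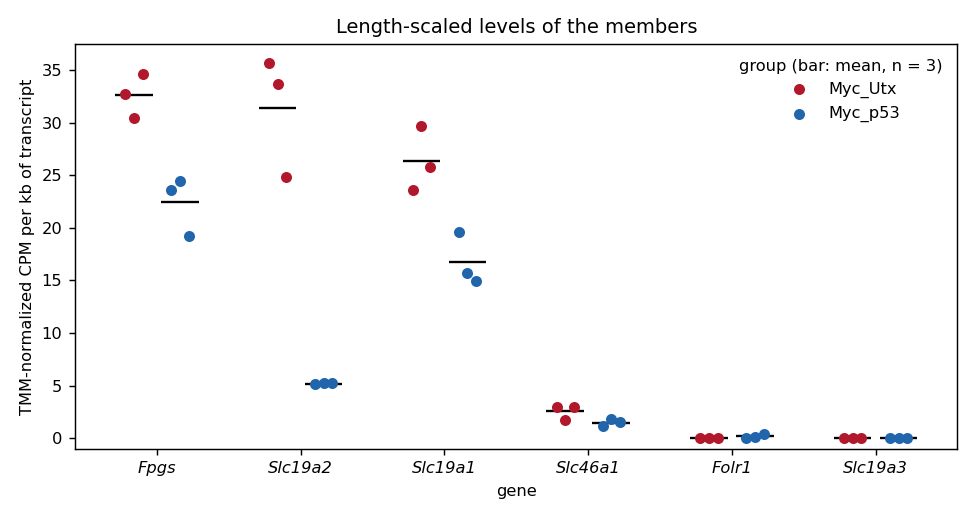
TMM-normalized CPM per kilobase of transcript (y axis) for each member (x axis) in the Myc_Utx (red) and Myc_p53 (blue) cell lines. Points are single lines and black bars the means (n = 3). Slc19a2 lies near Fpgs and Slc19a1 in Myc_Utx, with a mean of 31.4, and well below both in Myc_p53, with a mean of 5.20.

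Beyond the transporters, no tested gene of thiamine handling or use was called in either direction. Among all genes tested, 6.99% were higher and 7.69% lower. Of 18 such genes on the lists for thiamine handling and for enzymes that use thiamine pyrophosphate, 12 were tested, 0 rose and 0 fell at an adjusted p under 0.05, and their median log2 fold change was -0.14 (all genes tested, -0.01). Thtpa, a thiamine triphosphatase, was at -0.52 (95% interval -1.04 to -0.0048, adjusted p = 0.141), with every Myc_Utx line below every Myc_p53 line. Among the enzymes, transketolase Tkt was the most abundant, at 895.8 ± 94.9 and 820.2 ± 88.1 CPM (SD, n = 3), and its change was 0.13 (-0.19 to 0.45). Ogdh and Pdha1, subunits of the 2-oxoglutarate and pyruvate dehydrogenase complexes, were at 0.35 (adjusted p = 0.108) and 0.48 (adjusted p = 0.179), both without overlap and without a call.

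**Figure D3:**
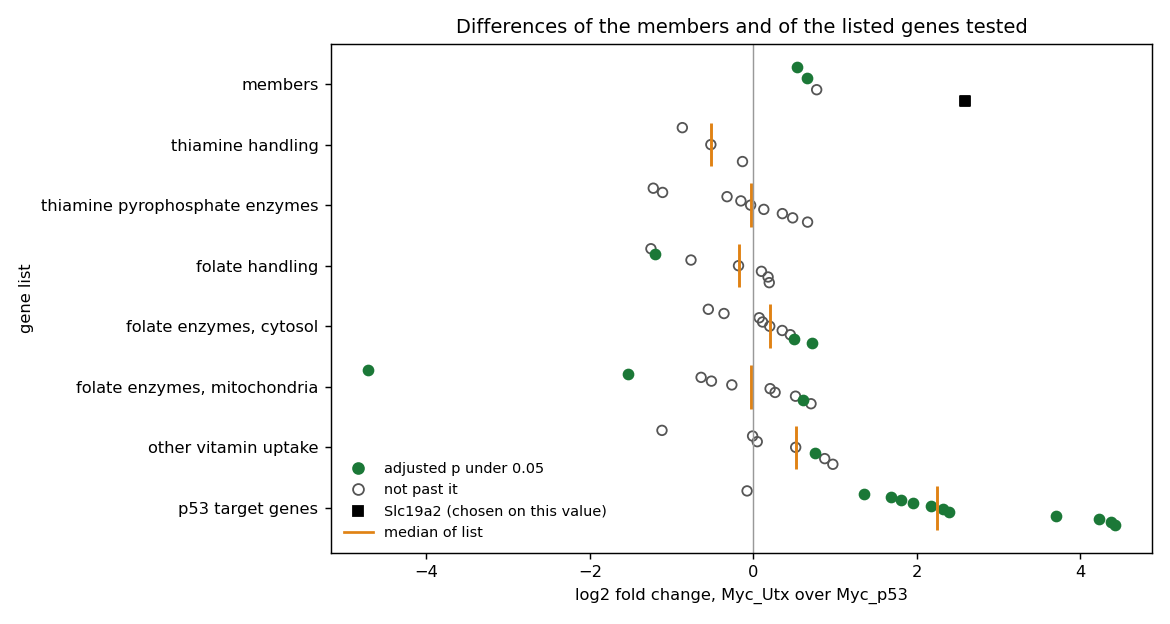
Log2 fold change of Myc_Utx over Myc_p53 (x axis) for each tested gene of the members and of 7 gene lists (rows). Filled green points passed an adjusted p under 0.05, open points did not, the black square is Slc19a2 and orange bars are list medians. No gene of the thiamine lists passed. Of the 12 p53 target genes, listed with results of these data known, 11 passed, all higher in Myc_Utx. The part of p53 in these levels was not tested. Over all genes tested, 6.99% passed as higher and 7.69% as lower.

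On the folate side, a few genes were called in each direction, where 6.99% of all genes tested were higher and 7.69% lower. Of 10 genes that carry, receive, split or export folates, 7 were tested and 1 was lower. This was Abcc4, an exporter that also carries folates, with 91.9, 164.8 and 159.4 CPM in Myc_Utx and 247.3, 307.3 and 402.1 CPM in Myc_p53 (log2 fold change -1.20, SE 0.28, adjusted p = 0.0392). No line of one group reached the other. The call was lost with an offset for transcript length (-0.93, adjusted p = 0.0703) and without any 1 line other than Myc_p53 line 1. The exporters Abcc1 (0.19, -0.12 to 0.51) and Abcc5 (-0.76, -1.31 to -0.22, adjusted p = 0.0677) and the mitochondrial folate carrier Slc25a32 (0.18, -0.21 to 0.57) did not pass. Ggh, which removes the glutamates that Fpgs adds, was at 0.10 (adjusted p = 0.743), and its ratio to Fpgs per length was 0.234 to 0.249 in Myc_Utx and 0.274 to 0.399 in Myc_p53, without overlap.

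Among 12 folate enzymes of the cytosol, 9 were tested, 2 were higher and 0 lower in Myc_Utx, with a median log2 fold change of 0.20. Mthfd1, which interconverts one-carbon forms of folate, had 330.2 ± 28.4 against 201.2 ± 45.8 CPM (SD, n = 3, log2 fold change 0.71, SE 0.18, adjusted p = 0.0483). Atic, which uses a folate in purine synthesis, had 394.6 ± 13.7 against 280.0 ± 38.4 CPM (log2 fold change 0.49, SE 0.13, adjusted p = 0.0481). Both adjusted p were close to the threshold. The Atic call was lost in every fit that left out a line and the Mthfd1 call in 5 of 6, and both were lost with total counts only (0.0595 and 0.0663), with at least 10 counts in every line (0.0574 and 0.0522) and with DESeq2 size factors (0.0525 and 0.0514). Atic was also lost with no filter on low counts (0.0569). The adjusted p of Tyms, which makes thymidylate (0.45, adjusted p = 0.0515), and of Gart, another purine enzyme (0.35, adjusted p = 0.116), were above the threshold, as was that of the serine hydroxymethyltransferase Shmt1 (0.07, adjusted p = 0.798).

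Among 11 mitochondrial genes of folate metabolism, 10 were tested, 1 was higher and 2 were lower, and the genes called all belong to the glycine cleavage system, which feeds one-carbon units from glycine into folate. Gldc, its glycine decarboxylase, had 3, 36 and 5 counts in Myc_Utx and 126, 478 and 836 in Myc_p53, with no overlap and a wide spread in both groups (log2 fold change -4.71, SE 1.03, adjusted p = 0.0340). Line 2B held 36 of the Myc_Utx counts, and without it the change was -6.44. Amt, the aminomethyltransferase, had 11, 12 and 12 counts against 50, 31 and 49 (log2 fold change -1.53, SE 0.29, adjusted p = 0.0254). Gcsh, the lipoyl carrier protein, went the other way, at 109.8 ± 5.84 against 72.0 ± 5.47 CPM (SD, n = 3, log2 fold change 0.61, SE 0.11, adjusted p = 0.0253). Shmt2, Mthfd1l and Mthfd2, the main route of serine carbon through mitochondrial folate, were at 0.70 (adjusted p = 0.0503), 0.52 (0.100) and 0.27 (0.631). The calls of Gldc, Amt and Gcsh were each lost in 4 or 5 of the 6 fits without one line, and that of Amt with no filter on low counts (0.0652). Over the 5 thiamine and folate lists together, 38 of 51 genes were tested, 3 were higher and 3 lower, with a median log2 fold change of 0.02. These calls came at rates near those over all genes tested, 6.99% higher and 7.69% lower. The 7 hepatocyte markers found summed to 7.58 to 80.4 CPM in Myc_Utx and 39.1 to 78.7 in Myc_p53, and the 6 bile duct markers to 510.4 to 1441 and 155.1 to 1476, with overlap in both. Spp1 made up most of the bile duct sum. Single markers of both lists moved with the groups, not all in the same direction. By sign, 1 of 3 tested hepatocyte markers was higher in Myc_Utx and 2 lower. Of 4 tested bile duct markers, 2 were higher and 2 lower. Sox9 was at 0.94 (SE 0.37, adjusted p = 0.131), with overlap. Apob had 0 to 6 counts in Myc_Utx and 71 to 378 in Myc_p53 (adjusted p = 0.0240), and the bile duct marker Prom1 had 2, 0 and 0 against 141, 12 and 98 (adjusted p = 0.0287). Krt19 had 234, 25 and 129 counts against 2088, 325 and 2468 (adjusted p = 0.0653), and Krt7 had 1, 0 and 2 against 100, 3 and 459. Neither of these overlapped between groups, but Krt7 did not pass the filter on low counts and its groups lay only 2 against 3 counts apart at the nearest. The part of the markers in these differences was not tested.

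Because Slc19a2 is known to be induced by p53, its level was set beside 12 other p53 target genes listed for this purpose. All 12 were tested, 11 were called higher in Myc_Utx and 0 lower, and the median log2 fold change was 2.24. The shares over all genes tested were 6.99% higher and 7.69% lower. Cdkn1a, the cell cycle inhibitor p21, was at 4.23, the p53 ligase Mdm2 at 2.31 and the death effector Bax at 2.17, against 2.59 for Slc19a2. The Cdkn1a change was 4.93 without Myc_p53 line 3. Without Myc_Utx line 2A, where 3 genes were called higher and 1 lower in the whole table, Ccng1 was the one target gene still called. The other 10 of those 11 then had adjusted p of 0.0518 to 0.105, with changes of 4.20 for Cdkn1a, 2.36 for Mdm2 and 2.22 for Bax. The one without a call was Pmaip1 (-0.08, adjusted p = 0.948). The list was drawn up with results of these data known, and the part of p53 in these levels was not tested. The summed level of the 12 genes was 2942.9, 2873.3 and 2102.6 CPM in lines 2A, 2B and 2D, with line 2D lowest as for Slc19a2. In Myc_p53 it was 381.3, 367.7 and 453.3 CPM. The genes whose log2 CPM followed that of Slc19a2 most closely over the 6 lines were Fam212b, Ccng1, Mtap, Psrc1 and Isoc1, with Pearson's r from 0.996 to 0.999. Ccng1 (cyclin G1) and Psrc1 (a microtubule-binding protein) are known p53 target genes. Mtap salvages methylthioadenosine. Such r values mostly follow the gap between the groups, and 263 tested genes had an r above 0.95, so they describe likeness in these lines and carry no test. For Slc19a1, Fpgs and Slc46a1, r with Slc19a2 was 0.896, 0.891 and 0.723.

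Genes next to Slc19a2 on chromosome 1 were read to see whether the difference extended along the chromosome. Of the 5 nearest genes with counts on each side, 7 were tested and 1 of them was called, as higher. Over all genes tested, 6.99% were called higher and 7.69% lower. Ccdc181, the nearest of those tested at 10.2 kb, was at 0.11 on the log2 scale (SE 0.25), Blzf1, 24.4 kb away, at -0.02 (0.19) and Nme7, 38.7 kb away, at -0.17 (0.18), all with overlap between the groups. Atp1b1 (-0.23), Mettl18 (0.52) and BC055324 (-0.07) also overlapped. Scyl3, 293.9 kb away, had 61.6 ± 2.50 against 35.5 ± 5.22 CPM (SD, n = 3, log2 fold change 0.79, SE 0.15, adjusted p = 0.0268), and its span overlaps that of BC055324 on the other strand. F5, the gene just before Slc19a2, had 0, 2 and 0 counts in Myc_Utx and 0, 47 and 4 in Myc_p53, and Selp and Gm37411 had at most 4 in any line.

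**Figure D4:**
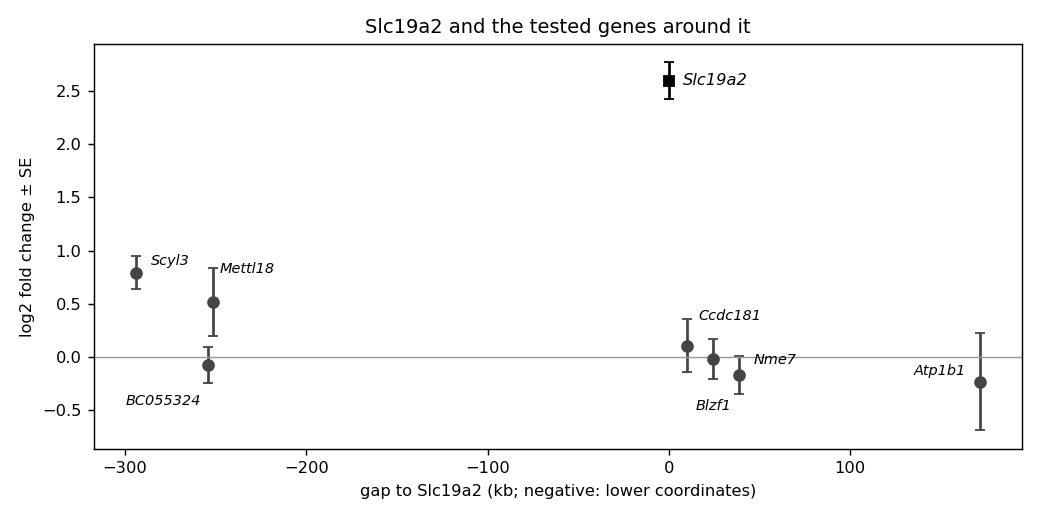
Log2 fold change of Myc_Utx over Myc_p53 with its standard error (y axis) for Slc19a2 and the 7 tested genes among its 5 neighbours on each side, by the gap to Slc19a2 in kb (x axis). Slc19a2 lies at 2.59, while the neighbours lie between -0.23 and 0.79.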

How the data were processed

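RNA sequencing of 3 Myc_Utx and 3 Myc_p53 cell lines forms the data set. What the authors deposited is a table of raw counts, with a row for each Ensembl gene, a column for each line and no normalization. The submitters' processing notes name Trimmomatic 0.36, STAR 2.5.3a, featureCounts 1.6.3, DESeq2 1.20.0 and the mouse build GRCm38, whereas the paper's methods name HTSeq and a human build. Coordinates in the table match GENCODE M21, an annotation of GRCm38, in 95.9% of genes, all 6 members included, and are given as deposited. Whether reads were counted by strand is not given in the sources used here. Levels per length use the transcript length in the table.

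Samples were grouped by their titles. The test was that of edgeR 4.0.16 under R 4.3.3 (filterByExpr with its minimum count of 10, TMM, quasi-likelihood F test) with Benjamini-Hochberg adjustment over all 11510 genes tested. Standard errors follow from the F statistic, as the absolute change over its root, and intervals are 95%. Log2 CPM for likeness used a prior count of 2. The alternatives were no filter, at least 10 counts in every line, DESeq2 size factors, total counts only, offsets for transcript length, the Wald test of DESeq2 1.42.0 and leaving out each line in turn. In simulated counts, 200 genes were changed and 11300 genes were fitted. The procedure recovered 62.6% of genes changed by 2 and 14.0% of those changed by 1 on the log2 scale. Of its calls, 14.6% were false. In the data 805 genes were called higher and 885 lower, more than were changed in the simulation, so these rates need not hold there.

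The members and gene lists were chosen with earlier results of these data known. Genes named are the members, listed genes past an adjusted p of 0.05, at most 3 others per list with the highest mean CPM, the 5 neighbours of Slc19a2 on each side and the 5 genes most like it. Apob, Ttr, Apoa1, Fgb, Ahsg, Hnf4a, Spp1, Sox9, Prom1, Krt7, Krt19, Ptprc, Clec4f, Folr2 and Ggh, and the genes overlapping a member, were added after their values were seen. The marker Tf was not found by that symbol. Of 2 rows named Hacl1, the one with counts was used. Protein sequences were not used here, and the values of some listed genes are not reported here.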

Additional observations from a re-analysis of the deposited data

How the results depend on the processing

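No paired analysis was possible because no replicate number occurs in both groups. The number of members other than Slc19a2 that passed an adjusted p of 0.05 was 2. A minimum of 10 counts in every line gave 1, as did leaving low counts unfiltered. Scaling by total counts gave 0, and fits without one line gave 0 to 1. Of the genes on the 7 lists, 15 were higher and 3 lower, and 11 of the higher ones were p53 target genes. DESeq2 gave 18 higher and 6 lower, but over 70 tested genes of these lists, where the main fit tested 57. With a line left out, 1 to 13 were higher and 0 to 4 lower, with the fewest (1 and 0) without Myc_Utx replicate 2A, then 4 and 0 when 2B was dropped, 5 and 0 for 2D, and 7 and 0 for Myc_p53 replicate 3. Calls over all genes fell in the same fits, from 805 higher and 885 lower to 3 and 1, 43 and 38, 43 and 28, and 63 and 57, so the drop is not particular to the listed genes. Slc19a2, the other tested members, Kdm6a, Kmt2c and the called list genes kept their direction in every alternative run. Of their values, 17 with all 6 lines and 79 with a line left out were no longer past the threshold, and the cause was not tested. With all 6 lines, calls over all genes were 962 higher and 539 lower with transcript length offsets, which moved the median log2 fold change from -0.01 to 0.12, and 601 and 1009 with total counts only. At this depth Folr1 and Slc19a3 allow no fold.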

Other observations

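Uptake of other water-soluble vitamins was read from 9 genes, of which 7 were tested, 1 was higher and 0 were lower in Myc_Utx, with a median log2 fold change of 0.52. Among all genes tested, 6.99% were higher and 7.69% lower. Cd320, the receptor that takes up vitamin B12 bound to transcobalamin, had 24.7, 25.1 and 28.9 CPM in Myc_Utx lines 2A, 2B and 2D and 17.2, 16.1 and 13.4 CPM in Myc_p53 lines 1, 2 and 3, without overlap (log2 fold change 0.75, SE 0.18, adjusted p = 0.0444 by edgeR's quasi-likelihood test). The call was lost with no filter on low counts (adjusted p = 0.0826), with total counts only (0.0551), with transcript length offsets (0.0515) and in each of the 6 fits that left out a line. Slc52a2, a riboflavin transporter, was at 0.97 (95% interval 0.33 to 1.62, adjusted p = 0.0566) without overlap between the groups. Slc23a2, a vitamin C transporter, was at 0.52 (0.0095 to 1.03, adjusted p = 0.138), and Lmbrd1, which lets vitamin B12 out of lysosomes, at -0.01 (-0.39 to 0.37).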
